A study of Mus musculus with 5 samples.

Results

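Transcription factors of biliary fate were followed in Akt/Notch liver tumours with and without late Prox1 overexpression. The set was 9 genes, namely Sox9, Sox4, Onecut1, Onecut2, Klf5, Ehf, Elf3, Grhl2 and Tbx3, out of 55397 genes in the deposited table, and members were found by gene symbol through their Ensembl identifiers. All tumours were from the livers of female C57BL/6N mice, which were given plasmids by hydrodynamic tail vein injection at the age of 8 weeks. This method forces plasmid DNA into hepatocytes, so that the tumours come from hepatocytes that took up DNA, in a liver that also holds untouched cells. All mice, controls included, received Sleeping Beauty transposase under a CMV promoter and transposons that express AKT and the NOTCH1 intracellular domain (NICD, with the rtTA activator) from the EF1a promoter. The 2 Control libraries came from mice that carried an empty pT3-Tre-IRES-GFP plasmid, and the 3 Prox1 OE libraries from mice with the same backbone with FLAG-tagged mouse Prox1. A doxycycline diet (6.25%) from day 21 switched the plasmid on from week 3 to week 4. Tumours were taken after a week of induction or at a humane endpoint, and the labels do not say which applied to which sample or how nodules were spread over mice.

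Bile ducts and hepatocytes arise from a shared precursor, the hepatoblast, and NOTCH signalling pushes cells towards the duct. SOX9 is an early marker and regulator of duct cells, acts with SOX4 in shaping ducts, and is a known NOTCH target. ONECUT1 (HNF6) and ONECUT2 guide hepatoblast fate and duct formation, and both are also expressed in hepatocytes. The study lists Onecut2 among its candidate repressors that protect hepatocyte identity. KLF5 is a zinc finger factor of epithelial renewal, EHF and ELF3 are ETS factors of glandular epithelia, and GRHL2 maintains epithelial junctions, in bile duct cells as elsewhere. TBX3 differs from the others in its known role, because in the liver bud it favours expansion of hepatoblasts and holds back biliary differentiation.

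Libraries held 48740863 to 56629477 reads, and each value of a member rested on 74 to 18695 reads. In normalised counts (reads divided by a size factor of the library), Prox1 itself stood at 4153 and 4664 in Control, against 48090 for Prox1 OE replicate 1, 11113 for replicate 2 and 8231 for replicate 3. Both Control libraries lay under all the others, with replicate 1 of Prox1 OE far above the rest, and the Prox1 difference had a limma adjusted p of 0.061. Plasmid and mouse copies of a gene were not separated. The labels call the cells transformed hepatocytes, and markers of hepatocytes and of cholangiocytes were both detected in every library. In such bulk samples, fewer cells of a type and less RNA per cell cannot be told apart. No label ties replicates to separate mice, and p-values measure the spread between these samples.

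RefSeq promoters (build GRCm38.p6) were at hand for 3 of the 9 members, Sox4, Onecut1 and Elf3, and are shown because all 3 genes had lower counts in Prox1 OE, as described further on. Each line gives the 250 bases before the RefSeq start site, 5′ to 3′ on the strand of the gene. Capitals mark the RBPJ motif TGGGAA (or TTCCCA, its other strand), through which NOTCH acts, and the GC box GGGCGG, which KLF and SP factors bind.
Sox4 (chr13:28953700-28953949, minus strand): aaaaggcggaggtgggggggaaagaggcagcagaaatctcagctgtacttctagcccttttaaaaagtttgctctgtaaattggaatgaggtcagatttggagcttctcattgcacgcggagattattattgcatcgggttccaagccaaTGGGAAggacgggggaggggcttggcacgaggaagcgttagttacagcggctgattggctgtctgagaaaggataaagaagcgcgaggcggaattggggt
Onecut1 (chr9:74861671-74861920, plus strand): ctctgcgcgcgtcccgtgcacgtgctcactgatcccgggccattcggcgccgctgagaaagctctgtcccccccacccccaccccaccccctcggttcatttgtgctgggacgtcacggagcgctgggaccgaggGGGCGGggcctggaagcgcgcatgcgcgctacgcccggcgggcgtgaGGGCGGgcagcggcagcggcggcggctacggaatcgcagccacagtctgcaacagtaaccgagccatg
Elf3 (chr1:135258473-135258722, minus strand): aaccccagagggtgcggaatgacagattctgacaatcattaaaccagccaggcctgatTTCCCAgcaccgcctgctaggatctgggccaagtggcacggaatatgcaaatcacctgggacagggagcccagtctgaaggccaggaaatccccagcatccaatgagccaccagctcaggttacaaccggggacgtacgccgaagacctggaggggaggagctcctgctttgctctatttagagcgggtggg

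The window searched ran to 50 bases after the start. It held the RBPJ motif in Sox4, at position -100 from the start, and in Elf3, at -192 on the opposite strand, and 25.56% of the 32851 RefSeq promoters hold it on either strand. Onecut1 had 3 GC boxes, at -115, -68 and 12 from the start, where 35.66% of promoters hold any, and a GC content of 73.0% against a median of 52.7%. No match was found in these windows for the ETS core CGGAAG (16.85% of promoters) or the ONECUT motif ATCGAT (0.93%). None of the motifs overlapped another, and a match describes letters only.

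Biliary fate factors were lower in tumours with late Prox1 overexpression. Of the 9 members, all of which passed the expression filter, 8 fell and Tbx3 did not pass the test. The 8 fell by 1.94-fold to 3.28-fold between group means, and the median log2 fold change over the 9 was -1.21. Across all 17105 genes tested the median was -0.02, 16.2% of genes were called lower and 33.3% in either direction. The test was limma on log2(normalised count + 1) with Benjamini-Hochberg adjustment over all genes and a threshold of 0.05, and fold changes are Prox1 OE over Control. Values did not overlap between the groups for the same 8 members, as for 32.4% of all genes in the lower direction and 63.3% in either. Called lower were 8 members with edgeR and with DESeq2 too, where 15.7% and 18.6% of all genes were. At an unadjusted p under 0.05, 0 members were higher with limma, edgeR or DESeq2, where 22.8% (limma) and 23.8% (both others) of all genes were.

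**Figure D1:**
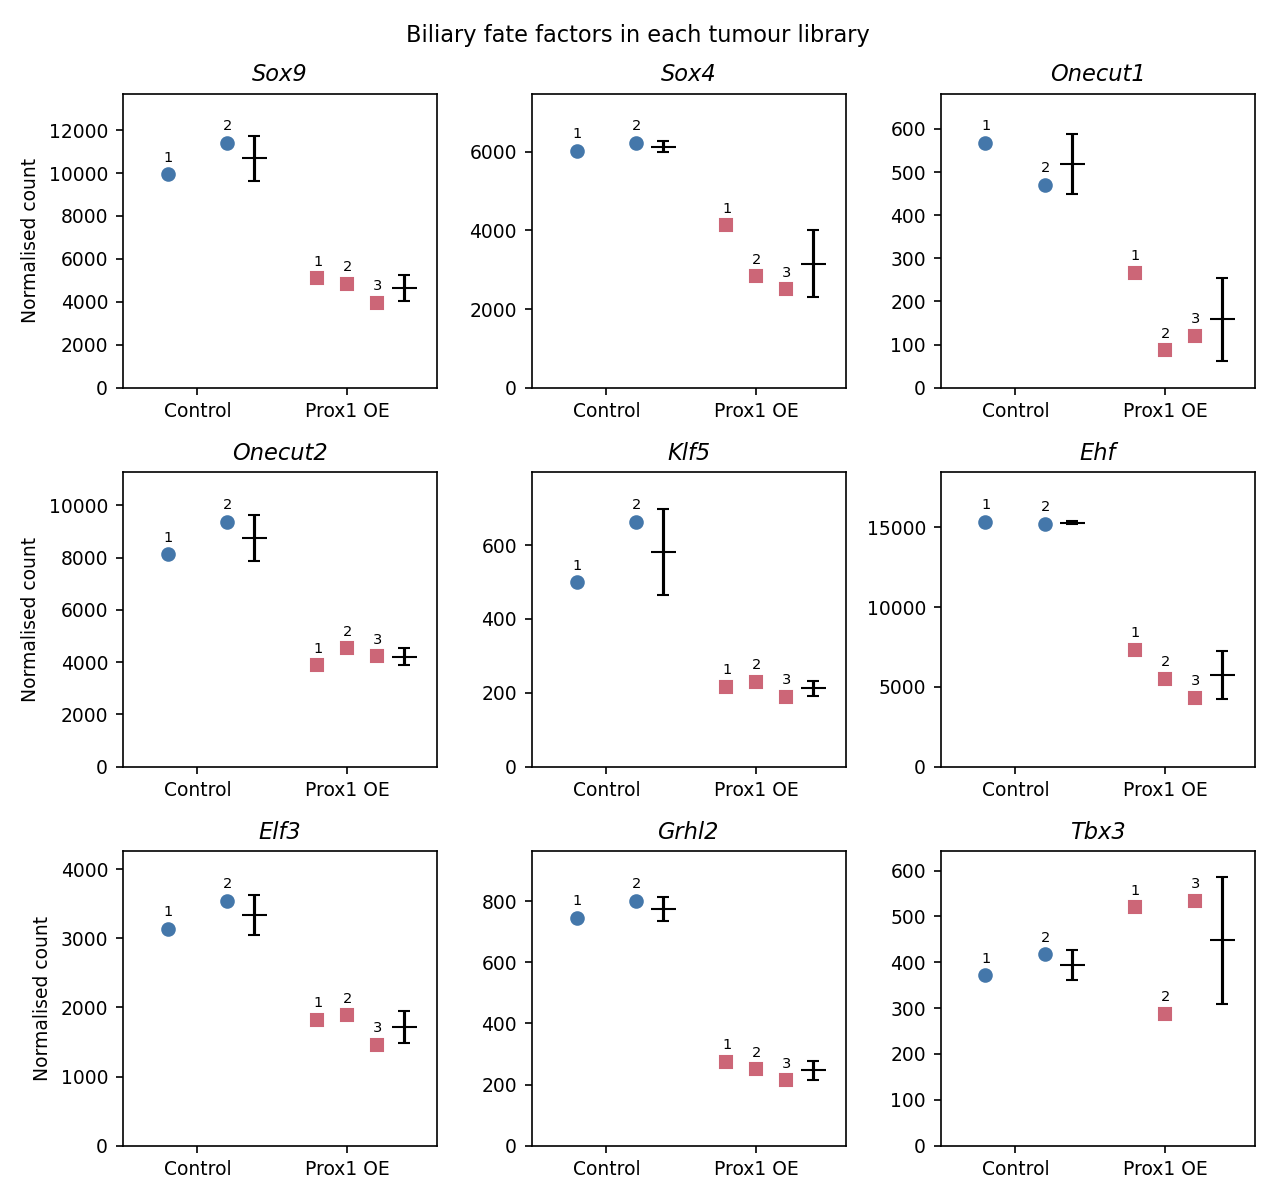
Normalised counts (vertical axis, from 0) of each factor in the 2 Control libraries (circles) and 3 Prox1 OE libraries (squares), numbered by replicate, with the group mean and SD as black bars. In 8 panels every square lies under both circles; for Tbx3 the groups overlap.

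Sox9 (ENSMUSG00000000567, mm10 chromosome 11, 112782224 to 112787760) was counted at 9937 and 11420 in Control (normalised counts, replicates in order) and at 5088, 4844 and 3951 in Prox1 OE. The highest Prox1 OE value was well under the lowest Control value, which was 1.95 times as high. Sox9 had a log2 fold change of -1.21 (SE 0.15, limma adjusted p 0.0026), and Prox1 OE kept 43.3% of the Control mean. Sox4 (ENSMUSG00000076431, chromosome 13, 28948919 to 28953713), a SoxC factor of progenitors, had 6025 and 6235 in Control and 4128, 2837 and 2502 in Prox1 OE. Prox1 OE replicate 1 was closest to Control, and the groups stayed 1.46-fold apart, the narrowest gap of the 8. Sox4 had a log2 fold change of -0.99 (SE 0.21, limma adjusted p 0.011). Without Control replicate 1 or 2 its log2 fold change was nearly the same (-1.02 and -0.97), but the call was lost (limma adjusted p 0.079 and 0.071). The study itself reported lower expression of Sox9, as a cholangiocyte marker, in Akt/Notch tumours with late Prox1 overexpression. The fall of Sox9 seen here is therefore not independent evidence. Sox4 shares 2616 exon bases (54.6%) with the noncoding gene Gm26735 on the other strand, for which no row was used here, and whether counting used strand was not stated, so that its count is uncertain.

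The ONECUT pair had very unequal levels. Onecut2 (ENSMUSG00000045991, chromosome 18, 64340020 to 64400987) had 8137 and 9380 normalised counts in Control against 3873, 4535 and 4224 in Prox1 OE. Its Prox1 OE libraries were the tightest of all members, with the highest 1.17 times the lowest, with a log2 fold change of -1.06 (SE 0.13, limma adjusted p 0.0026). Onecut1 (ENSMUSG00000043013, chromosome 9, 74861921 to 74891781) had 569 and 470 in Control against 267, 87.3 and 120 in Prox1 OE. Replicate 1 lay between the other Prox1 OE libraries and Control, and the Prox1 OE values spread 3.06-fold. Onecut1 had the largest fall of the set, -1.87, and the widest error (SE 0.43, 95% interval -2.87 to -0.86, limma adjusted p 0.016). Leaving out Control replicate 1 or 2 gave -1.73 and -2.003, with the call lost (limma adjusted p 0.12 and 0.069), while omitting Prox1 OE replicate 1 moved it to -2.32 (0.0036) and omitting replicate 2 to -1.52 (0.047). Without replicate 2 the largest fall was that of Grhl2 (-1.67). Onecut1 shares 52.8% of its exon bases with Gm20649 on the same strand, which was listed at 0 in all 5 libraries. How reads in these shared bases were counted was not given, so that the level of Onecut1 is uncertain.

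Both ETS factors fell. Ehf (ENSMUSG00000012350, chromosome 2, 103263433 to 103303278) had the highest counts of the set, 15359 and 15224 in Control, and 7312, 5506 and 4325 in Prox1 OE. The Control libraries were nearly equal, the Prox1 OE values spread 1.69-fold, and the lowest Control value was 2.08 times the highest Prox1 OE value. Ehf had a log2 fold change of -1.45 (SE 0.21, limma adjusted p 0.0035). Elf3 (ENSMUSG00000003051, chromosome 1, 135253575 to 135258568) went from 3133 and 3545 to 1822, 1887 and 1457. Its fall of -0.96 on the log2 scale (SE 0.15, limma adjusted p 0.0041) was the smallest of the 8, and Prox1 OE kept 51.6% of the Control mean. Sox4 was close, at -0.99, and fell less than Elf3 without Prox1 OE replicate 2 (-0.93 against -1.03). An antisense gene, Gm26642, covers 162 exon bases of Elf3 but had at most 0.848 normalised counts in any library.

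Klf5 and Grhl2 were among the low members, and their Prox1 OE libraries lay close together. Klf5 (ENSMUSG00000005148, chromosome 14, 99298691 to 99315036) had 499 and 664 normalised counts in Control and 217, 230 and 189 in Prox1 OE. The Control libraries differed by 1.33-fold, the most of any member, while the 3 Prox1 OE values lay within 1.22-fold of each other, with a log2 fold change of -1.44 (SE 0.19, limma adjusted p 0.0031). Grhl2 (ENSMUSG00000022286, chromosome 15, 37233036 to 37363569) had 745 and 802 in Control against 274, 250 and 214 in Prox1 OE. Its groups were the furthest apart of the set, with the lowest Control value 2.72 times the highest Prox1 OE value, and its adjusted p was the lowest. Grhl2 had a log2 fold change of -1.65 (SE 0.17, 95% interval -2.05 to -1.26, limma adjusted p 0.0023). The antisense gene Gm16136, which shares 169 exon bases with Grhl2, also fell (-1.30, limma adjusted p 0.024), at 24.3 to 88.2 normalised counts, and was looked at only because of this overlap.

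Tbx3 (ENSMUSG00000018604, chromosome 5, 119670669 to 119684724) stood apart from the other members. It had 371 and 418 normalised counts in Control and 520, 288 and 535 in Prox1 OE, so that replicates 1 and 3 were above both Control libraries and replicate 2 was under them. Its log2 fold change came to 0.13 (SE 0.28, 95% interval -0.53 to 0.79, limma adjusted p 0.75), an interval that leaves room for a moderate change in either direction. The sign turned when libraries were scaled by their total count (-0.30) and when Prox1 OE replicate 1 (-0.0056) or 3 (-0.025) was left out, and leaving out replicate 2 gave 0.42 (limma adjusted p 0.12). The antisense transcript Tbx3os1, which shares 115 exon bases with Tbx3 at its start, had 8.22 and 9.32 in Control and 42.9, 87.3 and 142 in Prox1 OE. Tbx3os1 rose by 3.08 on the log2 scale (limma adjusted p 0.0052), and was named after its values were seen. Tbx3os1 had its lowest Prox1 OE value in replicate 1 and Tbx3 in replicate 2.

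Among the 9 members, Prox1 OE replicate 3 had the lowest value of its group for 6 and replicate 1 the highest for 5. Replicate 1 had the most Prox1 reads, and a relation of the members to the Prox1 level was not tested. On the first principal component of all genes tested (70.5% of the variance), Prox1 OE replicate 1 was nearest to Control, at 25.2, and replicate 3 furthest, at 65.4. Control lay at -72.9 and -60.7. The members did not all share this order, as Onecut2 was lowest in replicate 1. Likeness of pattern was measured as the Euclidean distance between log2 profiles over the 5 libraries, each centred on its mean. Distances ran from 0.29, for Sox9 and Elf3, to 1.63 over the 28 pairs of the 8, and from 1.46 to 2.37 for the 8 pairs with Tbx3. The 8 were grouped by their fall in the same libraries, so larger distances for Tbx3 add no separate result. The gene closest to each member, among 12961 others with a mean of at least 100, was Cdk19 for Sox9 (distance 0.066), Prag1 for Ehf (0.068), Slc41a1 for Sox4 (0.078) and Olfr1372-ps1 for Onecut2 (0.081). Then came Ctdspl for Elf3 (0.096), Vgll3 for Klf5 (0.14), Prkg1 for Grhl2 (0.17), Mospd2 for Tbx3 (0.18) and Slc30a2 for Onecut1 (0.21).

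Related members were compared within each library as the difference of their log2 values, 3 pairs in all. Sox9 minus Sox4 was 0.72 and 0.87 in Control and 0.30, 0.77 and 0.66 in Prox1 OE, a mean shift of -0.22 (exact permutation p 0.4). Onecut1 minus Onecut2 was -3.84 and -4.31 in Control and -3.85, -5.68 and -5.12 in Prox1 OE, a shift of -0.81 (exact permutation p 0.3). Replicate 1 had the balance of the Control libraries, and the shift was -1.33 without it and -0.41 without replicate 2. Ehf minus Elf3 was 2.29 and 2.10 in Control and 2.00, 1.54 and 1.57 in Prox1 OE, a shift of -0.49 (exact permutation p 0.2). This was the pair whose groups did not overlap, with Ehf lower relative to Elf3 in every Prox1 OE library. All tests were two-sided over the 10 possible assignments of libraries to groups, where p cannot go under 0.1, and adjusted over the 3 pairs each p was 0.4.

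Levels were compared between members as RPKM, that is, reads scaled to the length of the exons and to the total reads of the library. This total-count scaling puts the median gene at a log2 fold change of -0.44, so RPKM serves here to order the members within a group, and changes between groups are those in normalised counts. In Control the order was Ehf (61.6 ± 2.86, SD, n = 2), Sox9 (57.9 ± 3.36), Elf3 (33.8 ± 1.59), Sox4 (28.7 ± 0.459), Onecut2 (12.1 ± 0.730), Onecut1 (2.85 ± 0.493), Klf5 (2.50 ± 0.403), Grhl2 (2.02 ± 0.0235) and Tbx3 (1.34 ± 0.0578). Ehf and Sox9 overlapped, as did Onecut1 and Klf5, and the other neighbours in this order did not. The top of the order was high for the tissue, since 95.3% of tested genes had a lower Control level than Ehf, against 37.2% for Grhl2 and 30.7% for Tbx3. In Prox1 OE, Sox9 came to the top (18.8 ± 3.69, SD, n = 3) before Ehf (17.3 ± 5.50), Elf3 (13.0 ± 2.63), Sox4 (11.1 ± 3.58) and Onecut2 (4.33 ± 0.468). The first 4 overlapped from neighbour to neighbour, as did Tbx3 (1.12 ± 0.322), Klf5 (0.683 ± 0.114), Onecut1 (0.649 ± 0.419) and Grhl2 (0.479 ± 0.0902) at the bottom. Tbx3, the lowest factor within Control, was above 3 of the others by mean within Prox1 OE. Per exon length, Onecut2 exceeded Onecut1 by 3.63-fold and 5.05-fold in Control and by 3.68-fold, 13.2-fold and 8.89-fold in Prox1 OE. These ratios and the place of Onecut1 in the order carry the uncertainty from its overlap with Gm20649.

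**Figure D2:**
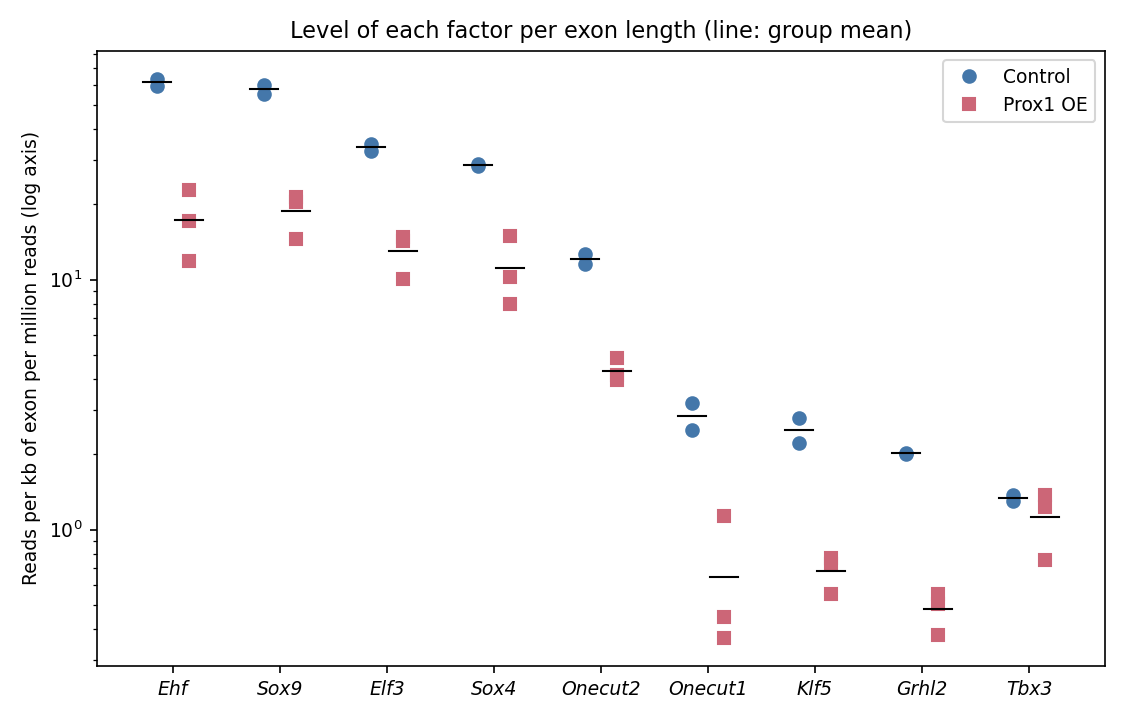
Level of each factor as RPKM (log axis) in the Control libraries (circles) and Prox1 OE libraries (squares), with lines at group means, ordered by the Control mean. Levels span from 61.6 for Ehf to 1.34 for Tbx3 in Control, and Tbx3 is the factor whose groups overlap.

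The genes of both drivers had lower total counts in Prox1 OE too, so members were also read relative to them. Akt1 had a log2 fold change of -1.05 and Notch1 of -1.19 (limma adjusted p 0.0057 and 0.0046), again with plasmid and mouse copies together. With the mean log2 of Akt1 and Notch1 subtracted in each library, 0 of the 9 members were called lower by limma, where 1.36% of all genes were, and 2 were lower at an unadjusted p under 0.05, where 1.5% of all genes were. Those were Onecut1 (-0.74, limma adjusted p 0.063) and Grhl2 (-0.53, 0.056). The other falling members moved between -0.33 for Ehf and 0.16 for Elf3, with Sox9 at -0.09. On that scale Tbx3 was called higher (1.25, limma adjusted p 0.0029), as were 74.6% of all genes, whose median was 1.11. Relative to 9 cholangiocyte markers, a reading added after the data were seen, 0 members were called lower at either the adjusted or the unadjusted threshold, where 1.03% and 1.11% of genes were lower. Values then ran from -0.55 for Onecut1 to 0.36 for Elf3, and Tbx3 was 1.45 higher, as 78.5% of genes were called higher. Missing the threshold here does not show that members and drivers fell alike, and the 95% interval against the drivers was -0.63 to 0.45 for Sox9 and -0.88 to 0.22 for Ehf.

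**Figure D3:**
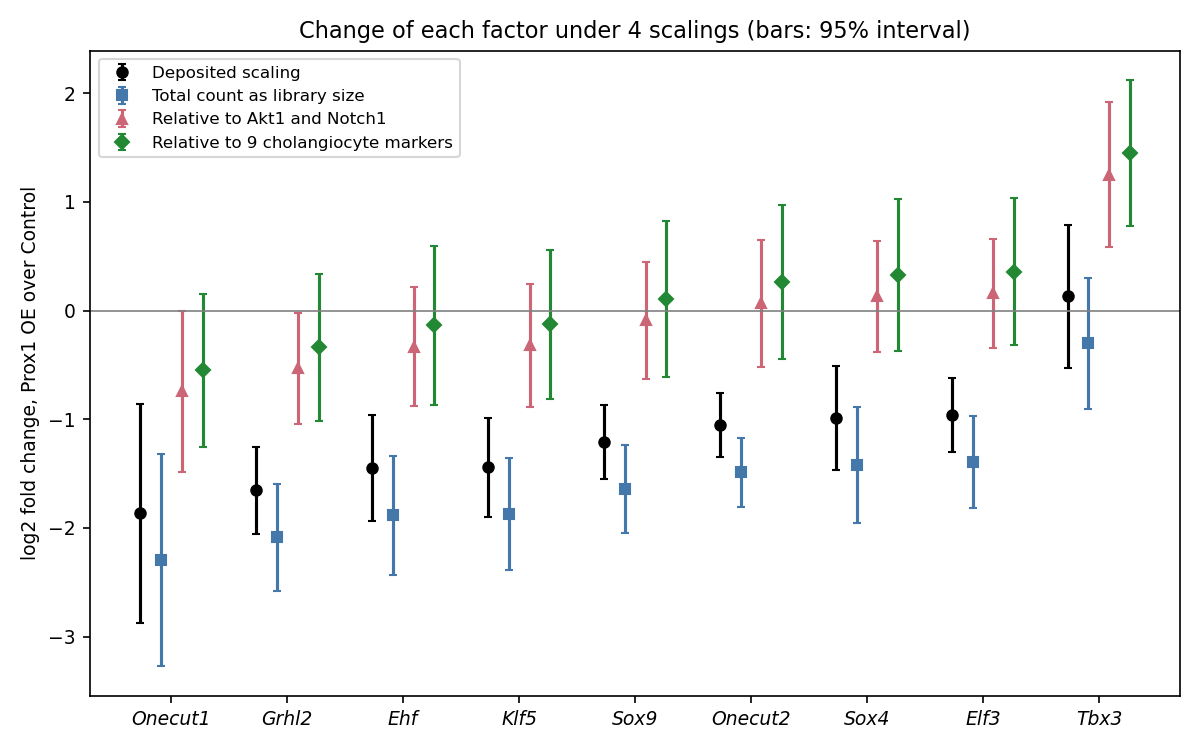
Log2 fold change of each factor (vertical axis, Prox1 OE over Control, bars 95% intervals from limma) with the deposited scaling, the total count as library size, and relative to Akt1 and Notch1 or to 9 cholangiocyte markers. The 8 falling factors lie under 0 with the deposited scaling and the total count, while relative to the drivers the intervals of Onecut1 (-0.74) and Grhl2 (-0.53) lie under 0, those of the other 6 include 0, and Tbx3 is at 1.25, or at 1.45 relative to the markers.

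Relatives of the members were examined by family. Of 54 relatives, 48 were tested, of which 17 fell, 3 rose and 28 did not pass the threshold, with a median of -0.25. Over all genes tested 16.2% were called lower, and no test compared the families with each other. Among Sox relatives 3 of 9 tested fell, with Sox11, another SoxC factor, at -3.37 (limma adjusted p 0.0088) and Sox8 at -1.49 (0.030). Sox11 was low and its Control libraries disagreed, at 119.9 and 27.97 normalised counts against 3.47 to 5.90 in Prox1 OE. Among ETS relatives 7 of 15 fell, led by Elf4 (-1.46, limma adjusted p 0.0030) and Etv6 (-1.16, 0.0028). Grainyhead relatives had 3 of 5 lower, with Tfcp2l1, a factor of renal and glandular ducts, at -1.07 (0.0053) and Grhl1 at -0.82 (0.0094).

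Among KLF relatives 3 of 12 fell, among them Klf7 (-1.02, limma adjusted p 0.0038) and Klf4 (-1.01, 0.0071), while Klf15, a metabolic regulator of hepatocytes, rose by 1.54 (0.023). In the Cut family Cux1 fell (-0.41, 0.043) and Cux2 rose (1.05, 0.038), and Onecut3 was too low to be tested. Of 5 T-box relatives tested Tbx2 rose (0.76, 0.037) and 4 did not pass the threshold.

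**Figure D4:**
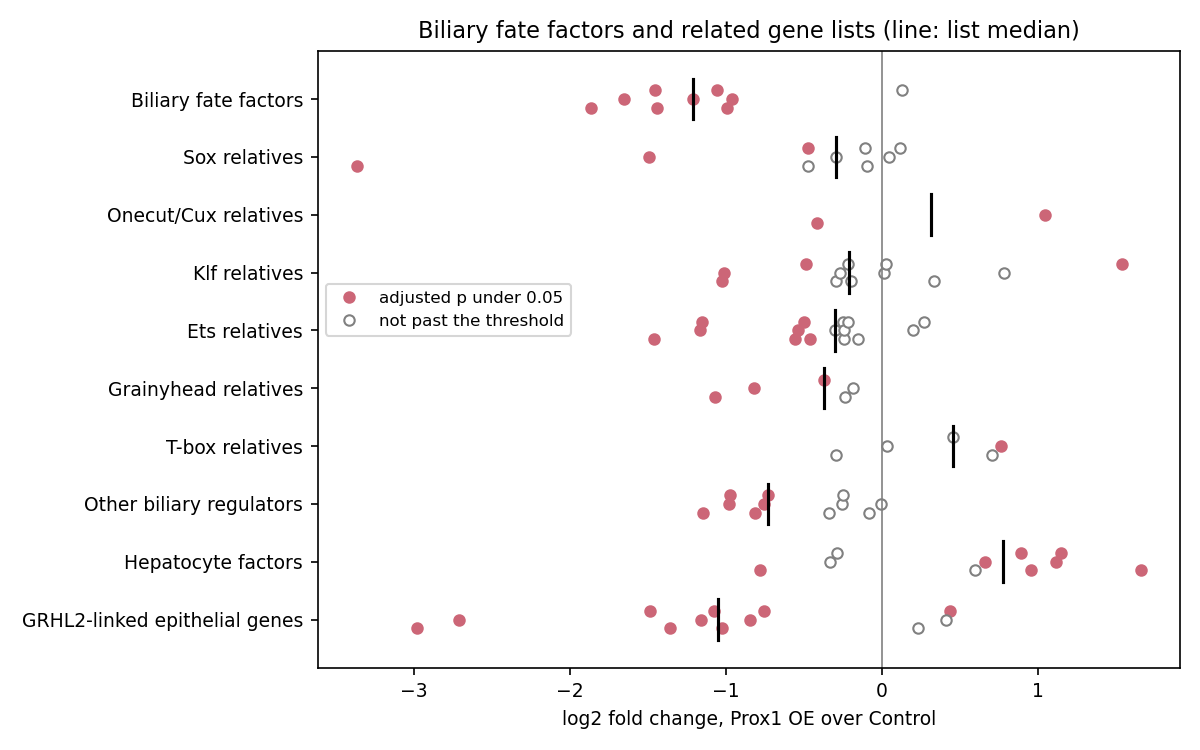
Log2 fold change (horizontal axis, Prox1 OE over Control) of every tested gene in each list, filled where the limma adjusted p was under 0.05 and open otherwise, with a line at the list median. The biliary fate factors have a median of -1.21, the 6 families of relatives have medians from -0.37 to 0.46, and the hepatocyte factors lie mostly above 0.

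Other regulators of biliary fate were read in the same fit. Of 12 such genes 11 were tested, 6 fell and 5 did not pass the threshold, with a median of -0.73. Heyl, a NOTCH target, had the largest fall (-1.15, limma adjusted p 0.017), followed by Tead4 (-0.98, 0.047), a partner of YAP. The NOTCH targets Hes1 (-0.26, limma adjusted p 0.23) and Hey1 (-0.0036, 0.99) did not pass the threshold. Of the hepatocyte factors 6 of 10 rose, where 17.1% of all genes were called higher, with Nr1i3, the receptor CAR, at 1.66 (0.019) and Hnf4a, the central hepatocyte regulator, at 1.15 (0.0033). Foxa1, a pioneer factor of both liver lineages, fell (-0.78, 0.0044).

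Epithelial genes linked to GRHL2, which included junction and splicing genes but also others, were read beside Grhl2. Of 12 genes 9 fell, Esrp2 rose, and 2 did not pass the threshold, with a median of -1.05. Of all genes tested, 16.2% were called lower. The part of Grhl2 in these falls was not tested. Cldn4, a tight junction claudin, fell most (-2.98, limma adjusted p 0.011), from 140.5 and 270.4 normalised counts in Control to 57.3, 16.5 and 13.9. Esrp1, an epithelial splicing factor, went from 859 and 1046 to 119.6, 208 and 120.4 (-2.71, 0.0023), while its paralogue Esrp2 rose by 0.44 (0.031). Epcam, a member of this list, is also on the cholangiocyte marker list. Over the relatives, regulators, hepatocyte factors and epithelial genes together, 33 of 81 tested genes fell and 10 rose, and 6 fell and 1 rose without Control replicate 1, or 10 and 5 without Control replicate 2. Scaling by the total count lowered the median of all genes to -0.44 and gave 52 lower and 6 higher.

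Cell type markers moved with the same groups. Of 10 cholangiocyte markers, 9 were tested and 6 fell, led by Krt7 (-2.50, limma adjusted p 0.0024) and Krt19 (-2.41, 0.0014), and their summed level was 745110 to 815612 normalised counts in Control and 518426 to 701779 in Prox1 OE, most of it from Spp1, which did not pass the threshold. Of 10 hepatocyte markers 8 rose, Ass1 of the urea cycle most (2.46, limma adjusted p 0.0028), with sums of 1326527 to 1917719 and 3959951 to 5442747. All 6 proliferation genes fell (27441 to 41280 against 14425 to 19700). Of 10 stellate and fibroblast markers 4 fell and 2 rose (125704 to 130497 against 71328 to 83477). Of 7 endothelial markers 2 rose and 1 fell (8849 to 10997 against 10446 to 14673), and of 7 macrophage markers 3 rose (19270 to 19545 against 30328 to 38784). Of 6 lymphocyte markers 5 were tested and 3 rose (124 to 141 against 239 to 398), and neutrophil markers had 3 tested, none past the threshold (690 to 1044 against 922 to 1219), with Ly6g at the level of a few reads. The part of these shifts in the results for the biliary factors was not tested.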

How the data were processed

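Bulk RNA-seq of 5 liver tumour libraries was used. According to the submitters' notes and the methods, RNA was made into dUTP libraries, sequenced as pairs of 100 base reads and mapped with STAR to mm10. The counting tool, its use of strand and its annotation were not given in the sources used here. The deposited table holds a signal per gene, namely normalised counts that the authors made by dividing reads by DESeq2 size factors. Whole reads were recovered for 100% of values (tolerance 0.0001), at 0.822 to 1.18 normalised counts per read. A deposited table of the authors' own comparison (fold changes and p-values) was not used. Columns left unassigned numbered 0.

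Symbols came from GENCODE M21, which matched 55137 of 55397 identifiers, and exon lengths and coordinates from its GRCm38 annotation. Because the values are normalised, the test was limma 3.58.1 (R 4.3.3; lmFit, eBayes with trend, two-sided) on log2(normalised count + 1), for genes with a mean of at least 10, with no covariate and Benjamini-Hochberg adjustment over all 17105 genes. This scale understates the change of low genes. The 95% intervals come from the same fit. Pairs of members were compared by an exact permutation test over libraries.

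Members and gene lists were chosen with earlier results of these data known. Named genes were the members, for each of them the gene with the nearest profile, up to 4 examples a list from the called genes with the largest rises and falls (up to 2 each way), and Prox1, Akt1 and Notch1. Overlapping genes, Onecut3, Hes1, Hey1, Epcam, Spp1, Ly6g, Cdkn1a and the pericentral and WNT genes other than Cyp1a2 and Rhbg were named outside this rule, after their values were seen. Alternatives were TMM, upper-quartile and total-count scaling, pseudocounts (0.1, 10), gene filters (none, mean 50 or more), limma without trend, edgeR 4.0.16 and DESeq2 1.42.0 on recovered reads, a replicate block, each library left out and members relative to Akt1 and Notch1. The procedure was tested on simulated data.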

Additional observations from a re-analysis of the deposited data

How the results depend on the processing

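Relative to Akt1 and Notch1, and relative to the cholangiocyte markers, 0 members were called lower and 1 higher, in place of 8 and 0. Signs turned for Sox4 (0.13), Onecut2 (0.066) and Elf3 (0.16) relative to the drivers, and for Sox9 (0.11), Sox4 (0.33), Onecut2 (0.26) and Elf3 (0.36) relative to the markers. Both scales move the median of all genes, to 1.11 and 1.30. Over the other 16 alternatives, 8 members were called lower except without a Control library, which gave 6, so that leaving out a library gave 6 to 8 lower and 0 higher. The share of all genes called lower ran from 2.79% without Control replicate 1 to 39.9% under total-count scaling. A fit without a Control library assumes that the remaining Control library varies like the Prox1 OE libraries. Of 144 values of members, 136 kept direction and call, 4 lost the call (Sox4 and Onecut1, each without either Control library) and 4 changed sign. All 4 were Tbx3, at -0.30 with the total count as library size, -0.025 with the replicate block, and -0.0056 and -0.025 without Prox1 OE replicate 1 or 3, while leaving out replicate 2 gave 0.42.

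Of the 81 tested relatives, regulators, hepatocyte factors and epithelial genes, 33 were lower and 10 higher. The total count as library size gave 52 and 6, and limma without the trend gave 5 higher. Leaving out a library gave 6 to 36 lower and 1 to 11 higher. Fewest were called without Control replicate 1 (6 and 1). The causes were not tested. Over these omissions the shift of Sox9 minus Sox4 ran from -0.32 to -0.08, that of Onecut1 minus Onecut2 from -1.33 to -0.41 and that of Ehf minus Elf3 from -0.64 to -0.40.

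Replicate numbers are shared between groups, but only 2 pairs exist and no label ties them to a shared mouse or day. Across genes, the deviations of same-numbered libraries from their group means correlated at 0.14 and 0.016. With 2 Control libraries their deviations are exact opposites, so these values are not separate checks and cannot decide whether libraries were paired. The replicate block, which drops Prox1 OE replicate 3, called 8 members lower and 0 higher, and changed no call of a member.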

Other observations

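Tbx3 is also known as a pericentral hepatocyte gene under WNT control and as a repressor of cell cycle inhibitors, so lists of both kinds were read beside it. Of 12 pericentral and WNT-linked genes, 7 were higher in Prox1 OE and 5 did not pass the threshold, with a median log2 fold change of 1.14, where 17.1% of all genes and 8 of 10 hepatocyte markers were called higher. The 7 were Glul, Cyp2e1, Cyp1a2, Oat, Rhbg, Slc1a2 and Lect2, which are enzymes, transporters or a secreted factor. The 5 were the WNT feedback and receptor genes Axin2, Lgr5 (0.62), Nkd1 (0.40), Rnf43 (-0.11) and Znrf3 (-0.51). Cyp1a2, a pericentral cytochrome P450, was higher by 2.71 (limma adjusted p 0.0050) and Rhbg, an ammonia transporter, by 2.11 (0.0029). The WNT feedback gene Axin2 had 200.5 and 187 normalised counts in Control and 418, 180.5 and 249 in Prox1 OE, and did not pass the threshold (0.45, limma adjusted p 0.33). Among the Prox1 OE libraries Axin2 and Tbx3 were both lowest in replicate 2, and Axin2 was named after its values were seen.

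Of the 3 inhibitors that TBX3 is known to repress or that lie beside such a target, Cdkn2b fell from 293 and 335 to 160, 125 and 110 (-1.26, limma adjusted p 0.0066). Cdkn2a fell from 185 and 239 to 121, 124 and 57.9 (-1.13, 0.049), while Cdkn1a had a log2 fold change of -0.07 (0.80).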
